A study of Homo sapiens with 20 samples.

Results

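The genes described here encode the proteasome: the subunits of its core, its regulatory caps, and the factors that activate, inhibit or assemble it. They were taken by name, as every gene whose array symbol has the form PSM, a letter from A to G and a number, and were not chosen on their values. Of 19775 named genes on the array, 42 had this form and a probe set of their own. All 42 passed the filter on low values, which kept 13787 genes. Their groups were 3 genes of the immunoproteasome, 7 other genes of the beta ring and 7 of the alpha ring. The 19S cap had 5 ATPases (PSMC) and 12 other genes (PSMD), among them its assembly chaperones PSMD5, PSMD9 and PSMD10. The last group was 8 PSME, PSMF and PSMG genes, which encode activators, an inhibitor and chaperones of the core. PSMA6 and PSME2 were found only in probe sets shared with other genes, and these with PSMB11, PSMC5, PSMD7 and PSMD13 were not analysed here.

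The proteasome is the protease that degrades proteins tagged with ubiquitin. Its 20S core is a barrel in which outer rings of alpha subunits gate the entry and inner rings of beta subunits carry the catalytic sites, and the 19S cap recognises, unfolds and feeds in the substrate. In lymphoid cells, and after interferon, the catalytic subunits PSMB6, PSMB7 and PSMB5 are replaced by PSMB9, PSMB10 and PSMB8, which makes the immunoproteasome, whose peptides are better suited to loading on MHC class I. The proteasome also acts within the NF-kB pathway, since it degrades the inhibitor IkB once the IkB kinase has marked it.

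The cells were 5 established human lines of T cell acute lymphoblastic leukaemia (T-ALL): T-ALL1 and KOPT-K, and also CEM, HPB-ALL and DND41. Cells were treated for 16 h with the NBD peptide, which holds the NEMO-binding domain and keeps IKKγ from binding IKKα and IKKβ, or with a control peptide. The labels give the dose as 100 µM in one field and 100 mM in another, so nothing here rests on it. Each line and peptide had 2 arrays, 20 in all, and the labels do not say whether these were separate cultures, so p-values measure only the spread between arrays, which may be technical.

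Values are log2 intensities, and each difference is NBD minus control on the log2 scale unless lines are compared. Over all genes, the 2 arrays of a group correlated at 0.992 to 0.998, while between lines the values were 0.86 to 0.923. Of 20 T cell markers measured, 14 were above the filter on every array. Of 8 myeloid markers 1 was above it on every array and 6 on none. The other lists were less clear: of 6 B cell markers 2 were above it on every array and 2 on none. Of 9 fibroblast and epithelium markers 1 was above it on every array and 4 on none. The arrays of T-ALL1 and KOPT-K carry another number format and a higher mean intensity than those of CEM, DND41 and HPB-ALL, which appears to reflect separate normalization, so levels were set between lines only within each of these sets. RNA integrity was read from actin, as its 3′ minus its 5′ signal, which grows as RNA degrades. On the arrays of the other 4 lines this actin difference lay between 0.73 and 1.81.

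Averaged over the 5 lines, all 3 immunoproteasome genes fell with NBD. PSMB8 was 1.16-fold lower, PSMB9 1.15-fold and PSMB10 1.14-fold. Of all 42 proteasome genes, 6 were lower and 0 higher in limma's moderated test with Benjamini-Hochberg adjustment over all genes, against 6.14% and 2.24% of the 13787 genes tested. The other 3 that fell were PSMB2 of the beta ring, PSMD8 of the 19S cap and PSME1 of the 11S activator. The median effect over the 42 was -0.05, with 36 below 0, and over all genes it was -0.01. The actin difference moved with the peptide in T-ALL1, at 1.07 and 0.99 on its NBD arrays, against 3.16 and 2.05 on its control arrays. The same difference for GAPDH was 0.12 and 0.2 with NBD, against 0.77 and 0.21 with control peptide, so there only the first control array was apart. With the actin difference as a covariate, PSMB8 stayed past the threshold (-0.25, adjusted p = 0.00714), while PSMB9 (-0.13, adjusted p = 0.0588) and PSMB10 (-0.15, adjusted p = 0.0863) did not. PSMD8 (-0.14, adjusted p = 0.0377) and the ATPase PSMC3 (-0.21, adjusted p = 0.0153) passed in that fit. In RNA of whole cultures, less RNA in every cell and a loss from some cells cannot be told apart.

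Promoter windows are shown for those 3 immunoproteasome genes, for PSME1, whose product forms the 11S activator that caps the core beside the immunoproteasome, and for PSMB2, the beta ring gene that fell. They run from 250 bases before to 50 bases after the start of the gene, from RefSeq on GRCh38.p14, written 5′ to 3′ on the strand of the gene. Capitals mark matches, on either strand, to the antioxidant response element TGACNNNGC, read by NRF1 and NRF2, to the interferon-stimulated response element core (GAAA, any 2 bases, GAAA), or to the NF-kB letters (GGGA, any 4 bases, CC).
PSMB8, chr6:32844630-32844929, minus strand: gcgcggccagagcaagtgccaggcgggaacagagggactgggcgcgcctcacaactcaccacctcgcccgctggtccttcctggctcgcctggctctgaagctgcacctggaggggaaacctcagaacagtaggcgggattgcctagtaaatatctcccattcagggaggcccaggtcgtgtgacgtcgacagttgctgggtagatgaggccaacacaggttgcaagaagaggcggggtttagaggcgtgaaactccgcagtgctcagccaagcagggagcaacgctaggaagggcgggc
PSMB9, chr6:32853942-32854241, plus strand: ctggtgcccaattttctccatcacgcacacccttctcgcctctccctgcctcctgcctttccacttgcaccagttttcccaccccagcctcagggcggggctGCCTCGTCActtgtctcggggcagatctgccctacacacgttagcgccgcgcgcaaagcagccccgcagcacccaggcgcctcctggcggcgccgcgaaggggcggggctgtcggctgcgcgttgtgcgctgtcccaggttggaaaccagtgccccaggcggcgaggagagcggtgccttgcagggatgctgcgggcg
PSMB10, chr16:67936801-67937100, minus strand: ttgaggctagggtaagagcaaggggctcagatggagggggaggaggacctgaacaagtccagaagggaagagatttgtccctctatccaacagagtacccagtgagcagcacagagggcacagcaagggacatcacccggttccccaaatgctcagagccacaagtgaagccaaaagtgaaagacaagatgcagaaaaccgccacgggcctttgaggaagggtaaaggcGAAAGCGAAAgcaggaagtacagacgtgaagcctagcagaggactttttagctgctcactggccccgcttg
PSME1, chr14:24135944-24136243, plus strand: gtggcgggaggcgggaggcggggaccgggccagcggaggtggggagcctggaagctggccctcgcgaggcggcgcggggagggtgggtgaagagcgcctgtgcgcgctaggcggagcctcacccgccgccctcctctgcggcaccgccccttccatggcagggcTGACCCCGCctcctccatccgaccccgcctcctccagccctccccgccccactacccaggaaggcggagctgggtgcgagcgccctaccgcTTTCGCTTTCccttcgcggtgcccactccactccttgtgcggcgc
PSMB2, chr1:35641477-35641776, minus strand: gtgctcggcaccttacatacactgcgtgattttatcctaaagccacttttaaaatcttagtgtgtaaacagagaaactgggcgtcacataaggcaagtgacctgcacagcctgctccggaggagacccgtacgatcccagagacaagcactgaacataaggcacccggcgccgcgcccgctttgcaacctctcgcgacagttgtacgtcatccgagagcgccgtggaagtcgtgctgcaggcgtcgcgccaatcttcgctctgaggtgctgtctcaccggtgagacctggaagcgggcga
RefSeq windows were matched for 36 of the 42 genes. The interferon-response core was found in 5 of these 36 (13.9%), against 3.65% of all 27305 windows. PSMB10 holds it 21 bases before the start, as GAAAGCGAAA, and PSME1 on the opposite strand just after the start, while PSMA4, PSMB4 and PSMG4 are the others. The antioxidant element was found in 12 windows (33.3%), among them those of PSMB9 and PSME1, against 13.6% of all. The NF-kB letters were found in 7 windows (19.4%), against 25.1% of all, and none of the 5 windows shown holds them. No NF-kB, interferon or antioxidant match lies in the windows of PSMB8 and PSMB2. The box CCAAT, bound by NF-Y and not set in capitals, was in 16 windows (44.4%), PSMB2 and PSMB9 among them, against 35.7% of all. The capitals of different motifs do not overlap in any window shown. A match is only a run of letters and was not tested as a binding site.

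PSMB8 encodes β5i, the inducible subunit with chymotrypsin-like activity. In CEM it had log2 intensities of 10.33 and 10.3 with NBD, against 10.63 and 10.61 with control peptide. The HPB-ALL values were 9.8 and 9.84 with NBD, against 10.07 and 10.07 with control peptide. KOPT-K gave 11.5 and 11.44 with NBD, against 11.67 and 11.68 with control peptide. In each of these lines both NBD arrays were below both control arrays. DND41 gave 10 and 9.75 with NBD, against 10.1 and 10.13 with control peptide, also without overlap. T-ALL1 gave 9.19 and 9.27 with NBD, against 9.23 and 9.41 with control peptide, where the groups overlapped. The average effect was -0.22 ± 0.04 (SE, adjusted p = 0.00277 by limma), and each line's own effect was below 0.

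PSMB9 encodes β1i, the inducible partner of PSMB6. It read 9.95 and 9.99 in HPB-ALL with NBD, against 10.31 and 10.28 with control peptide. CEM gave 10.83 and 10.94 with NBD, against 11.15 and 11.13 with control peptide. In DND41 it was 9.91 and 9.82 with NBD, against 10.04 and 10.1 with control peptide. These 3 lines showed no overlap between peptides. In KOPT-K it was 11.18 and 10.97 with NBD, against 11.15 and 11.23 with control peptide, and in T-ALL1 8.9 and 9 with NBD, against 9.2 and 8.97 with control peptide. Both of these lines overlapped. The average effect was -0.21 ± 0.04 (SE, adjusted p = 0.00587 by limma), with all 5 lines below 0.

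PSMB10 encodes β2i, the inducible partner of PSMB7. HPB-ALL gave 8.59 and 8.62 with NBD, against 8.85 and 8.97 with control peptide. CEM gave 8.72 and 8.91 with NBD, against 9.06 and 9.05 with control peptide. T-ALL1 gave 7.33 and 7.5 with NBD, against 7.75 and 7.55 with control peptide. No NBD array reached a control array in these lines. KOPT-K gave 9.58 and 9.53 with NBD, against 9.76 and 9.75 with control peptide, again without overlap. In DND41 the arrays overlapped, with 9.44 and 9.39 under NBD, against 9.48 and 9.35 under control peptide, and an effect of 0.00. The NBD effect on PSMB10 was not found to differ between lines in limma's moderated F-test (adjusted p = 0.512). The average effect was -0.19 ± 0.04 (SE, adjusted p = 0.00879 by limma).

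No single line passed the threshold for any of the 3 genes, whose lowest adjusted p in a line was 0.108, for PSMB8 in CEM. Their effects were -0.31, -0.25 and -0.24 in CEM for PSMB8, PSMB9 and PSMB10 in that order, and -0.25, -0.32 and -0.30 in HPB-ALL. The same order gave -0.21, -0.12 and -0.20 in KOPT-K, and -0.09, -0.13 and -0.23 in T-ALL1.

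The constitutive catalytic subunits that these replace did not pass the test for the average. PSMB5, which carries the chymotrypsin-like site, had an effect of -0.11 ± 0.03 (SE, adjusted p = 0.0578), with all 5 lines below 0. PSMB6, the caspase-like subunit, had -0.05 (adjusted p = 0.362), and PSMB7, the trypsin-like subunit, had -0.03 (adjusted p = 0.493). Each inducible gene had an average effect further below 0 than the gene whose product it replaces, and the difference within these pairs was not tested.

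**Figure D1:**
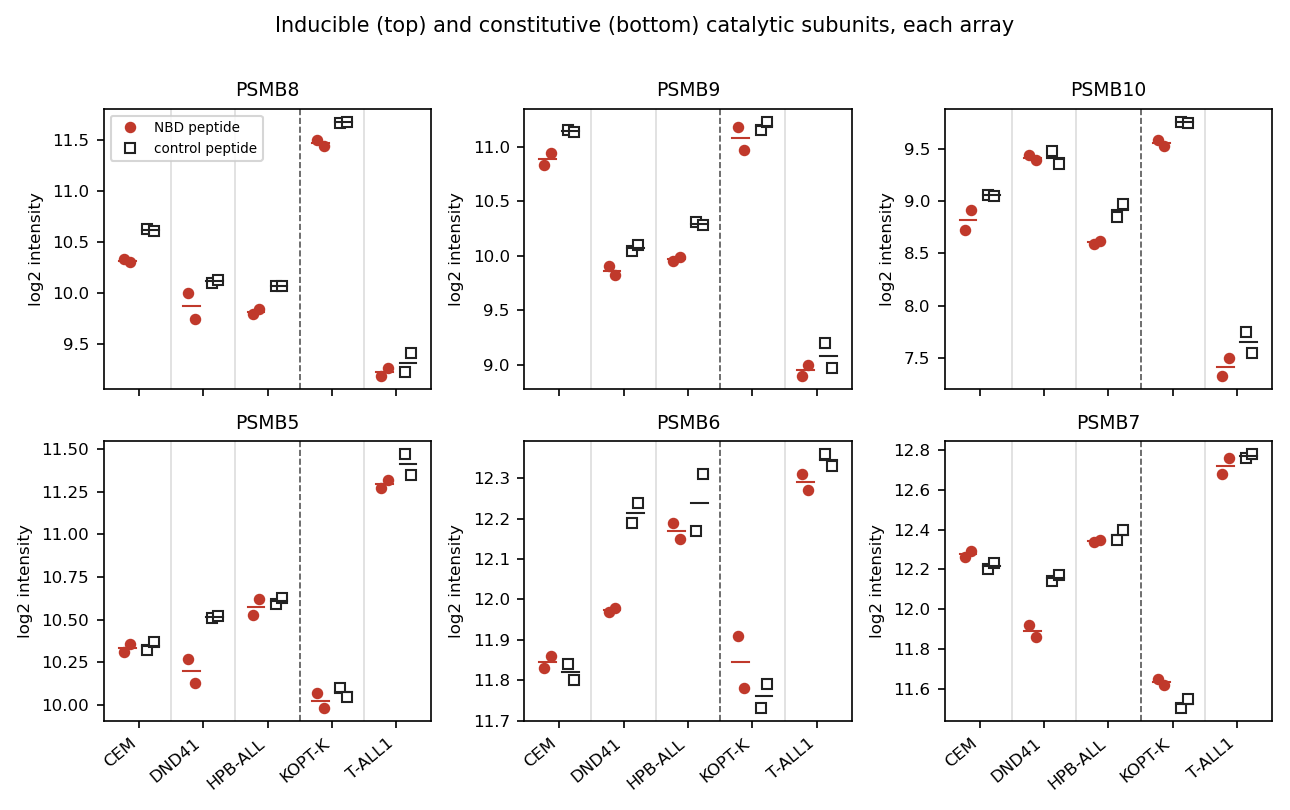
Log2 intensity (vertical axis, own scale in each panel) of the 3 inducible catalytic subunits, top, and the 3 constitutive ones, bottom, on each of the 20 arrays, by line (horizontal axis). Filled circles are NBD, open squares control peptide, short bars the mean of 2 arrays; the dashed line parts the sets of arrays that appear to be normalized separately. The PSMB8 mean is lower with NBD in every line, and PSMB8, PSMB9 and PSMB10 are lower in T-ALL1 than in KOPT-K, where PSMB5 and PSMB7 go the other way.

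Of the other genes that fell on average, PSME1 encodes PA28α, a subunit of the 11S activator. Its NBD arrays lay below the control arrays in 4 of the 5 lines. In T-ALL1 it was 12.55 and 12.58 with NBD, against 12.73 and 12.69 with control peptide, and in KOPT-K 12.07 and 11.91 with NBD, against 12.17 and 12.15 with control peptide. HPB-ALL overlapped, with 12.02 and 12.05 under NBD, against 12.06 and 11.98 under control peptide. Its average effect was -0.12 ± 0.03 (SE, adjusted p = 0.0265). PSMB2, the β4 subunit, averaged -0.12 ± 0.03 (SE, adjusted p = 0.0157). PSMD8, the cap subunit Rpn12, averaged -0.12 ± 0.03 (SE, adjusted p = 0.0269). In 20 fits that each left out 1 array, PSME1 lost its call in 9 and PSMD8 in 11.

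In a fit without the DND41 line, chosen after the data were seen, 3 genes remained lower, the immunoproteasome: PSMB8 (-0.21, adjusted p = 0.00718), PSMB9 (-0.21, adjusted p = 0.0269) and PSMB10 (-0.24, adjusted p = 0.0117). PSMB2 was then at -0.03 (adjusted p = 0.698), PSMD8 at -0.07 (adjusted p = 0.31) and PSME1 at -0.11 (adjusted p = 0.107). The share of all genes called without DND41 was not counted. With the actin covariate PSMB2 was at -0.12 (adjusted p = 0.0528) and PSME1 at -0.10 (adjusted p = 0.14). With the lines themselves as replicates no gene tested passed, the lowest adjusted p being 0.126. In that fit 5 of the 42 had an unadjusted p under 0.05, against 1639 of the 13787 genes tested. These shares are about the same, so the 42 genes as a set did not stand out on this measure. The 5 were PSMB8 (unadjusted p = 0.0023 by limma), PSMB9 (0.00335), PSMB10 (0.00833), PSMG4 (0.0429) and PSME1 (0.043). Their adjusted p ran from 0.166 to 0.399.

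Outside the immunoproteasome 3 of 39 genes (7.69%) were lower on average, against 6.14% of all genes. In the alpha ring 0 of 7 genes passed, with averages from -0.07 to -0.02 for the 6 other than PSMA8, which was below the filter in 3 lines. In the beta ring 1 of 7 passed, with averages from -0.12 to -0.03. Of the 19S ATPases, which unfold the substrate, 0 of 5 passed, between -0.05 and -0.02. Of the 12 PSMD genes of the cap, its 3 chaperones included, 1 passed, with averages between -0.12 and 0.04. Of the 8 PSME, PSMF and PSMG genes 1 passed, PSME1. Among these, PSMG4, a chaperone of the alpha ring, was at -0.14 (adjusted p = 0.145), and PSMF1, the inhibitor PI31, at 0.07. The effect was below 0 in all 5 lines for 5 of the 42 genes, against 8.81% of all genes, and above 0 in all for 0 of the 42, against 4.26%. The 5 were PSMA7, PSMB5, PSMB8, PSMB9 and PSMG4.

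In DND41 the genes that fell encode alpha and beta subunits of the core and subunits of the 19S cap. There 10 of 42 genes (23.8%) were lower and 0 higher, against 1.74% and 0.733% of all genes tested in that line. The genes were PSMA1 and PSMA3 of the alpha ring, PSMB2, PSMB5 and PSMB7 of the beta ring, the ATPases PSMC1 and PSMC2, and the PSMD genes PSMD8, PSMD12 and PSMD14. No immunoproteasome gene (0 of 3) and none of the PSME, PSMF and PSMG genes (0 of 8) passed. The cap chaperones PSMD5 (0.08), PSMD9 (0.02) and PSMD10 (-0.09), counted with the PSMD genes, did not pass. PSMB8 was at -0.24 and PSMB9 at -0.21 in this line. The median effect over the 42 was -0.23, with 37 below 0, against -0.02 over all genes. In 34 of the 42 both NBD arrays lay below both control arrays, against 27.8% of all genes, and in 2 both lay above, against 21.6%. By group, the median was -0.29 for the ATPases, -0.24 for the beta ring and for the 12 PSMD genes, -0.23 for the alpha ring and -0.04 for the PSME, PSMF and PSMG genes.

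PSMB2 had the lowest NBD effect of the 42 in DND41. It read 12.36 and 12.28 there with NBD, against 12.83 and 12.79 with control peptide. The groups did not overlap, and the effect was -0.49 ± 0.06 (SE, adjusted p = 0.0011 by limma), 1.41-fold lower. PSMD14 encodes Rpn11, the deubiquitinase of the cap that takes ubiquitin off the substrate. It read 11.67 and 11.58 with NBD in DND41, against 12.08 and 12.01 with control peptide, a difference of -0.42 ± 0.07 (SE, adjusted p = 0.00642). PSMA3, the α7 subunit, read 11.65 and 11.59 with NBD, against 12 and 11.99 with control peptide, a difference of -0.38 ± 0.06 (SE, adjusted p = 0.00656). Both NBD arrays were below both control arrays for each of these genes.

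PSMA1, the α6 subunit, read 12.76 and 12.7 in DND41 with NBD, against 13.05 and 13.12 with control peptide, a difference of -0.35. PSMB5 read 10.27 and 10.13 with NBD, against 10.51 and 10.52 with control peptide, a difference of -0.32. PSMD12, the scaffold subunit Rpn5, read 10.79 and 10.77 with NBD, against 11.1 and 11.07 with control peptide, a difference of -0.30. The arrays of the 2 peptides were again apart in each case. The other called genes were PSMD8 (-0.32), PSMC2 (-0.29), PSMC1 (-0.28) and PSMB7 (-0.26). Just short of the threshold was PSMD1, the large cap scaffold Rpn2, at -0.43 ± 0.11 (SE, adjusted p = 0.0582), which was 10.6 and 10.46 with NBD, against 10.96 and 10.96 with control peptide.

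The DND41 count depended on single arrays. It was 1 without the first control array, 2 without the second control array and 1 without the second NBD array of DND41, and 16 without either T-ALL1 control array, whose actin values are given above. PSMB2 stayed past the threshold in each of the 20 fits that left out 1 array, with a highest adjusted p of 0.0243. The actin difference in DND41 was 1.32 and 1.21 with NBD, against 1.46 and 1.38 with control peptide, and with it as a covariate 15 genes were lower. The share of all genes called was not counted in this fit or in those that left out 1 array.

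Some of these genes have further probe sets, which were compared in a fit over all probe sets past the filter. In that fit the probe sets used for PSMB2, PSMA1, PSMA3 and PSMD14 passed in DND41, and those of the other 6 genes had adjusted p from 0.0593 to 0.0924. PSMB2 has 3 others, of much lower signal (means of 4.19, 5.23 and 6.79), and their effects in DND41 were 0.15, -0.13 and -0.19, none past the threshold, and the mean of all 4 gave -0.16 (adjusted p = 0.456). PSMA3 has 2 others near the filter (means of 4.54 and 5.13) at 0.10 and 0.12. PSMA1 has 2 others of high signal (means of 11.86 and 12.78), both at -0.33 in DND41 (adjusted p = 0.0684 and 0.0527), but the one used and 1 of these carry the maker's mark for probes that also match other sequences. PSMD12 has 1 other at -0.11 and PSMC2 has 2 at -0.20 and -0.23. PSMB7 has 1 other near the filter (mean of 5.15), at 0.17 in DND41 (adjusted p = 0.915). PSMB5, PSMB8, PSMB9, PSMB10, PSMD8, PSMD14, PSMC1 and PSME1 have 1 probe set each.

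**Figure D2:**
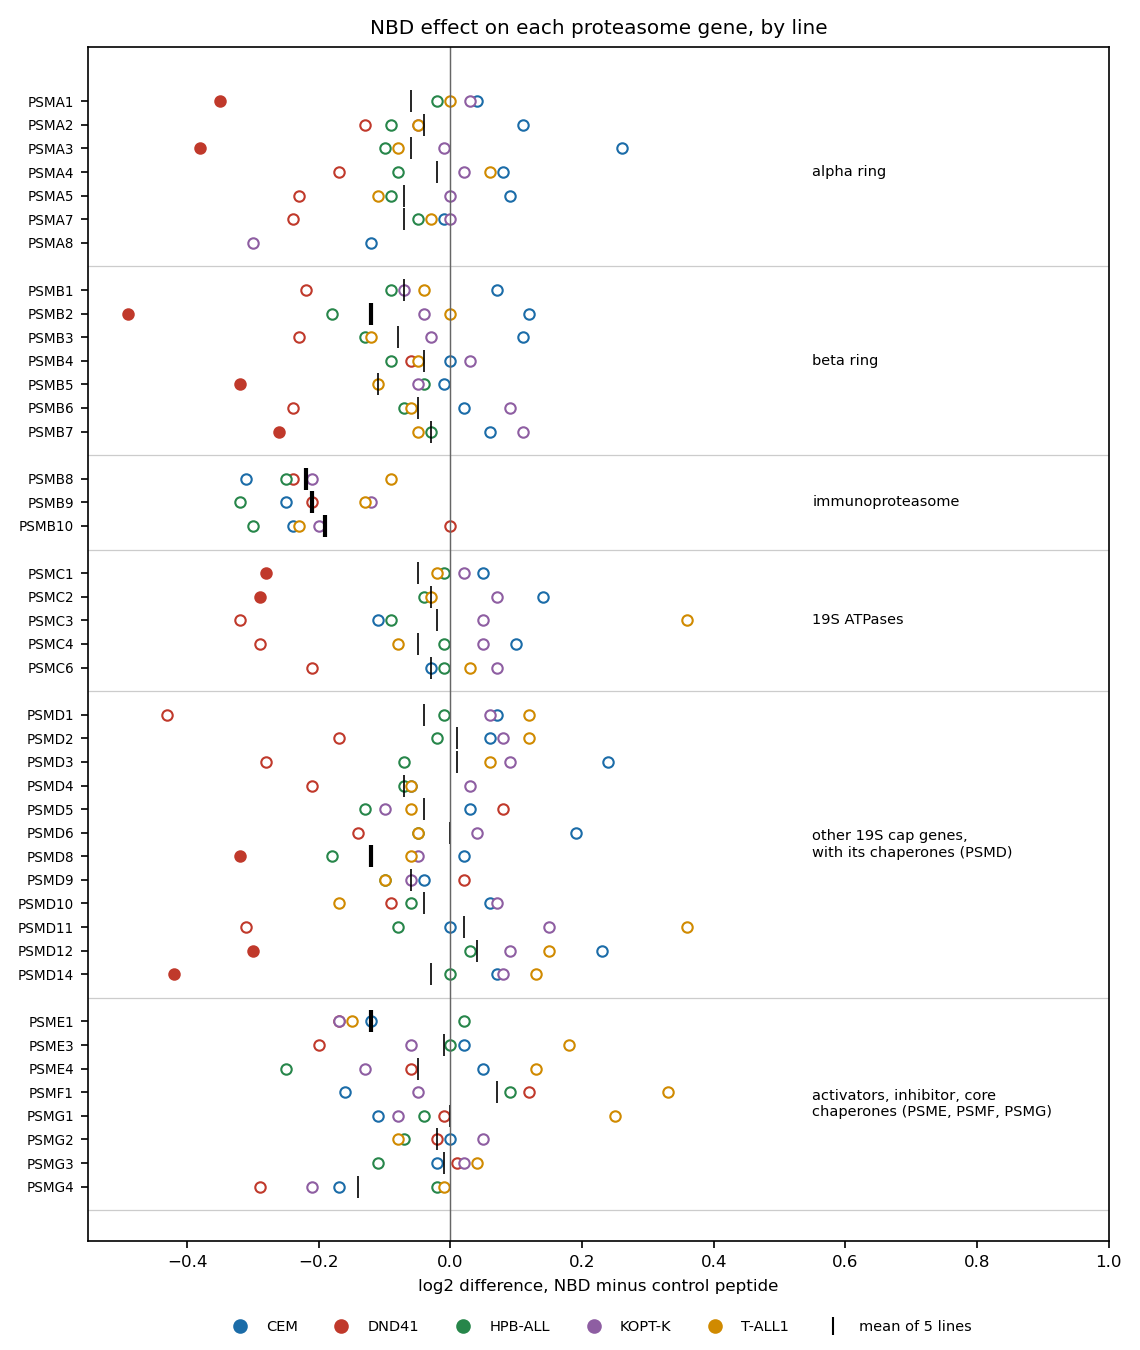
Effect of NBD (log2 difference, NBD minus control peptide, horizontal axis) on each of the 42 genes (rows) by subcomplex, 1 circle per line. Filled circles passed the threshold in that line, and the vertical tick is the mean of the 5 lines, thick where it passed. PSMA8 is drawn only for CEM and KOPT-K, the lines where it was above the filter. The filled circles are the 10 genes of DND41, and the thick ticks the 6 genes of the average, 3 of them the immunoproteasome.

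The other 4 lines had 0 of 42 genes past the threshold in limma's test, in either direction. Of all genes, 0.392% were higher and 0.74% lower in CEM, 0.138% and 0.646% in HPB-ALL, 0.892% and 0.384% in KOPT-K, and 1.15% and 2.3% in T-ALL1. At an unadjusted p under 0.05, 5 proteasome genes were higher and 3 lower in CEM, against 4.98% and 8.45% of all genes. HPB-ALL had 0 higher and 7 lower, against 2.62% and 7.82%, and KOPT-K 0 higher and 3 lower, against 5.91% and 5.92%. T-ALL1 had 5 higher and 3 lower, against 8.29% and 12.6%. DND41 had 0 higher and 27 lower on the same measure, against 5.8% and 8.9%.

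In HPB-ALL 38 of 42 genes were below 0, with a median of -0.07 over all and -0.30 over the immunoproteasome. Both NBD arrays lay below both control arrays for 24 genes and above for 1, against 29.1% and 20.7% of all genes. CEM had 26 genes above 0 and a median of 0.03, with the alpha ring at 0.08 and the beta ring at 0.06, while its 3 immunoproteasome genes lay between -0.31 and -0.24. There 9 genes had both NBD arrays below and 20 above, against 28.2% and 21% of all genes. Without either T-ALL1 control array 2 genes were higher in CEM. KOPT-K had 21 genes above 0 and 21 below, with all 5 ATPases above 0 and all 3 immunoproteasome genes below. Its arrays were apart for 9 genes below and 11 above, against 23.6% and 18.9% of all genes.

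T-ALL1 had 16 genes above 0 and 26 below, with the arrays apart for 13 below and 6 above, against 24% and 18.7% of all genes. Its highest effects, 0.36 for both PSMC3 and PSMD11, belonged to genes whose control arrays disagreed. PSMC3, a cap ATPase, read 11.28 and 11.22 with NBD, against 10.52 and 11.27 with control peptide. PSMD11, the cap subunit Rpn6, read 11.81 and 11.68 with NBD, against 11.1 and 11.68 with control peptide. For both genes the low value was that of the first control array, whose actin difference was 3.16, and 1 control array was at the level of NBD. PSMF1 (0.33, adjusted p = 0.0676 by limma) and PSMG1 (0.25, adjusted p = 0.0835) followed, with both NBD arrays above both control arrays. PSMF1 read 10.93 and 11 with NBD, against 10.46 and 10.81 with control peptide. PSMG1 read 11.03 and 10.97 with NBD, against 10.81 and 10.68. The part of RNA integrity in these values was not tested.

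The NBD effect differed between the lines for 4 of the 42 genes, in limma's moderated F-test over the 5 lines, against 1.83% of all genes tested. They were PSMB2 (adjusted p = 0.015), PSMA3 (adjusted p = 0.02), PSMD12 (adjusted p = 0.0275) and PSMD14 (adjusted p = 0.0322). PSMA3 was -0.38 in DND41, -0.10 in HPB-ALL, -0.08 in T-ALL1, -0.01 in KOPT-K and 0.26 in CEM. In CEM it read 11.28 and 11.29 with NBD, against 11 and 11.06 with control peptide, the reverse of DND41. The actin difference in CEM was 1.71 and 1.81 with NBD, against 1.44 and 1.45 with control peptide, and with it as a covariate 6 genes differed between lines. PSMD12 was -0.30 in DND41 and 0.03 to 0.23 in the other 4 lines. In CEM it read 11.2 and 11.28 with NBD, against 11.01 and 11 with control peptide. PSMB2 was -0.49 in DND41, -0.18 in HPB-ALL, -0.04 in KOPT-K, 0.00 in T-ALL1 and 0.12 in CEM. PSMD14 was -0.42 in DND41 and 0.00 to 0.13 in the other lines. The count was 0 without either DND41 control array or the second DND41 NBD array, and 15 without the second T-ALL1 control array and 7 without the first. It was 1 or 2 without any other array except the KOPT-K control arrays and the first HPB-ALL control array, where it stayed within 1.5 times. On the mean of all probe sets of a gene, the adjusted p was 0.775 for PSMB2, 0.705 for PSMA3 and 0.246 for PSMD12. The share of all genes that differed was not counted in these alternatives.

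**Figure D3:**
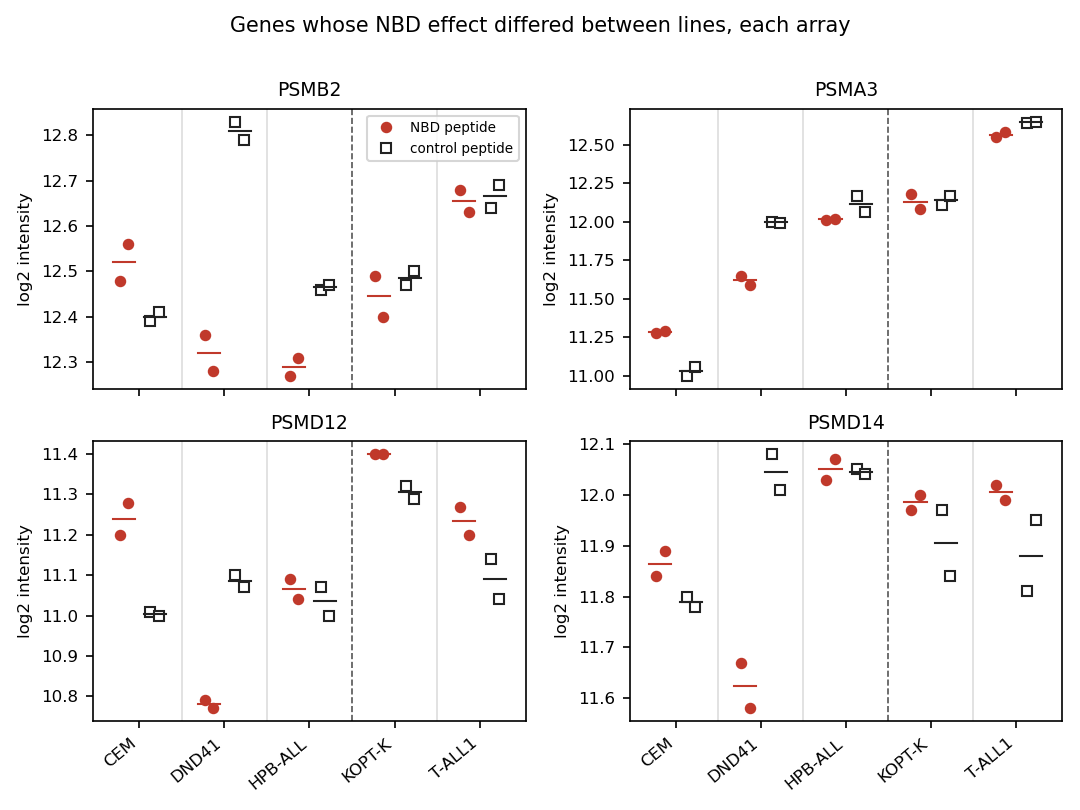
Log2 intensity (vertical axis, own scale in each panel) of the 4 genes whose NBD effect differed between lines, on each array, by line. Filled circles are NBD, open squares control peptide, short bars means of 2 arrays. In DND41 both NBD arrays lie below both control arrays for all 4, and in CEM both lie above for all 4.

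Lists of genes around the proteasome are read against the shares of all genes called: on average 2.24% higher and 6.14% lower, in DND41 1.74% lower, in T-ALL1 2.3% lower and in KOPT-K 0.892% higher. Of the 13 proteasome partners tested, which assemble, bind or edit the particle, 0 passed for the average. In DND41 2 of 13 fell: POMP, the assembly factor that completes the core, with 12.74 and 12.67 with NBD, against 13.09 and 13.01 with control peptide (-0.34 ± 0.06 SE, adjusted p = 0.014), and ADRM1, the ubiquitin receptor of the cap, with 9.88 and 9.77 with NBD, against 10.17 and 10.15 with control peptide (-0.33 ± 0.08 SE, adjusted p = 0.0401). In T-ALL1 1 of 13 fell, UBLCP1, a phosphatase of the nuclear proteasome, at -0.44. Of 12 regulators of proteasome genes, NFYB, a subunit of the CCAAT-binding factor, rose on average by 0.11 (adjusted p = 0.0284), and NFE2L1, which encodes the NRF1 factor that drives proteasome genes when the proteasome is short, was at 0.03 (adjusted p = 0.849). In KOPT-K 1 of the 12 rose, MAFG, a small MAF partner of NRF1 and NRF2, with 8.73 and 8.82 with NBD, against 8.38 and 8.3 with control peptide (0.43 ± 0.09 SE, adjusted p = 0.0253). Of 14 genes of ubiquitin and substrate delivery, 0 passed for the average or in any line. Of 20 antigen-processing genes beside the immunoproteasome, 1 fell on average: TAPBPL, a peptide editor of MHC class I, at -0.29 ± 0.06 (SE, adjusted p = 0.00764). TAP1 was at -0.05 and B2M at -0.01, neither past the threshold.

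Between lines under control peptide, T-ALL1 had lower transcript levels of the immunoproteasome and higher ones of the other beta ring genes than KOPT-K. This comparison gave 23 of 42 genes higher and 9 lower, against 30.6% and 23.6% of all genes. All 3 immunoproteasome genes were lower in T-ALL1 and all 7 other beta ring genes higher. Of these 7, only PSMB5, PSMB6 and PSMB7 are the constitutive counterparts of the immunoproteasome genes. PSMB8 read 9.23 and 9.41 in T-ALL1, against 11.67 and 11.68 in KOPT-K, a difference of -2.36 ± 0.08 (SE, adjusted p = 1.27e-11), 5.12-fold lower. PSMB9 was lower by 4.31-fold (-2.11 ± 0.09 SE) and PSMB10 by 4.3-fold (-2.10 ± 0.09 SE). PSMB5 read 11.47 and 11.35 in T-ALL1, against 10.1 and 10.05 in KOPT-K, 2.52-fold higher (1.34 ± 0.07 SE). PSMB7 read 12.76 and 12.78 in T-ALL1, against 11.5 and 11.55 in KOPT-K, 2.36-fold higher (1.24 ± 0.06 SE). PSMB6 was higher by 0.59. PSME1, of the 11S activator, was also higher in T-ALL1, unlike the immunoproteasome genes (0.55 ± 0.07 SE, adjusted p = 6.88e-06 by limma). For each of these genes the 2 lines were apart without overlap.

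Other genes of the same direction were PSMD5, a chaperone of the cap, at 0.84 and the ATPase PSMC1 at 0.83. The NBD arrays gave the same directions: -2.24, -2.12 and -2.14 for PSMB8, PSMB9 and PSMB10, and 1.27 and 1.08 for PSMB5 and PSMB7. Among 20 antigen-processing genes, 14 were lower and 2 higher in T-ALL1, with a median of -0.70. The lower ones included HLA-B (-2.77), which presents the peptides, and TAP1 (-1.41) and TAP2 (-1.42), which carry them. NLRC5 (-1.78) and IRF1 (-1.49), factors known to drive such genes, were also lower, and their part here was not tested. NLRC5 read 5.55 and 5.07 in T-ALL1, near the filter value of 5, so its difference is less certain. TPP2 read higher in T-ALL1 (10.25 and 10.08) than in KOPT-K (9.16 and 9.13), as did LAP3 (10.91 and 10.58, against 10.03 and 10.07). The RNA integrity of the T-ALL1 control arrays differs from that of KOPT-K, as given above, and with the actin difference as a covariate PSMB8, PSMB9 and PSMB10 were at -2.17, -2.50 and -2.36.

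**Figure D4:**
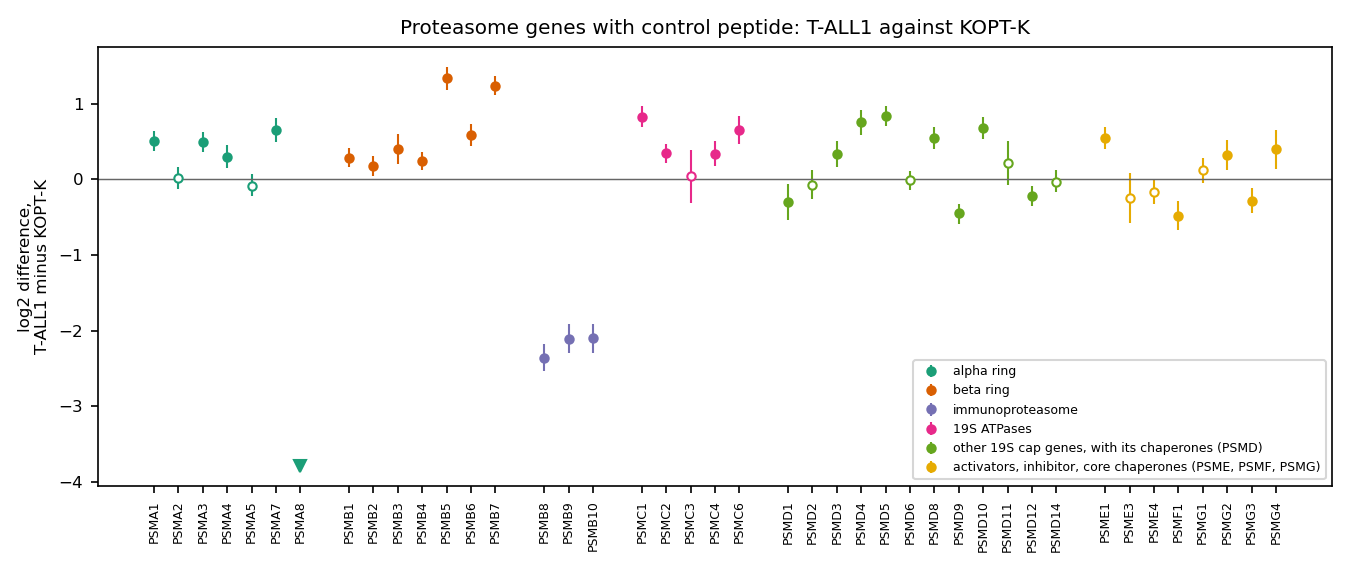
Difference of log2 intensity under control peptide, T-ALL1 minus KOPT-K (vertical axis), for the 42 genes (horizontal axis), coloured by subcomplex. Points are differences of group means (n = 2 arrays each) with 95% intervals, filled where the difference passed the threshold. The triangle is PSMA8, whose T-ALL1 arrays are below the filter, drawn at the bound of -3.79 with no interval. The immunoproteasome genes lie between -2.36 and -2.10, and the beta ring genes between 0.18 and 1.34.

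PSMA8, the alpha subunit of the testis, was found at a level above the filter only in KOPT-K and CEM, so it had to differ between lines. It is counted among the 9 genes lower in T-ALL1 than in KOPT-K, and among those higher in CEM in the comparisons that follow. It read 8.4 and 8.59 with NBD and 8.82 and 8.76 with control peptide in KOPT-K. In CEM it read 7.17 and 7.05 with NBD and 7.08 and 7.39 with control peptide. The other 3 lines gave 3.42 to 4.27, which is below the filter value of 5. The level is therefore only bounded there: set against the filter value, it was at least 13.8-fold lower in T-ALL1 than in KOPT-K, and at least 4.72-fold higher in CEM than in DND41 or HPB-ALL. The NBD effect was -0.30 (adjusted p = 0.582) in KOPT-K and -0.12 (adjusted p = 0.825) in CEM, neither past the threshold. Its promoter window, not shown, holds the NF-kB letters on the opposite strand.

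Among CEM, DND41 and HPB-ALL, CEM had the highest PSMB9: 11.15 and 11.13, against 10.04 and 10.1 in DND41 and 10.31 and 10.28 in HPB-ALL. The differences were 1.07 and 0.85. CEM minus DND41 gave 6 genes higher and 17 lower, against 22.2% and 19.8% of all genes, with PSMB9 (1.07), PSMG1 (0.86), a chaperone, and PSMC4 (0.63), an ATPase, as the highest beside PSMA8 and PSMA3 (-0.97), PSMB3 (-0.48), PSMB2 (-0.41) and PSMD3 (-0.41) as the lowest. PSMA3 read 11 and 11.06 in CEM, against 12 and 11.99 in DND41. On the NBD arrays, an alternative added after the data were seen, the same comparison gave 14 higher and 3 lower, with PSMB2 at 0.20 (adjusted p = 0.0173) and PSMD3 at 0.11 (adjusted p = 0.311). The share of all genes called on the NBD arrays was not counted, so these counts cannot be read against it. Without the second CEM control array 11 genes were lower.

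CEM minus HPB-ALL gave 13 genes higher and 17 lower, against 25.3% and 23.6% of all genes. PSMG1 (1.03) and PSMG4 (0.92), both chaperones, were among the highest beside PSMA8 and PSMB9 (0.85), and PSMA3 (-1.08), PSMD3 (-0.85), PSMD1 (-0.69) and PSMB1 (-0.65) were the lowest. DND41 minus HPB-ALL gave 12 higher and 8 lower, against 23.8% and 23.7% of all genes. PSMG4 (0.86), PSMD6 (0.64), PSMD8 (0.55) and PSMB10 (0.51) were the highest there, and PSMA4 (-0.58), PSMC4 (-0.53), PSMD3 (-0.44) and PSMB1 (-0.36) the lowest. PSMB10 read 9.48 and 9.35 in DND41, against 8.85 and 8.97 in HPB-ALL. The count lower was 5 without the second HPB-ALL control array and 17 on the NBD arrays, again with no share of all genes counted. For PSMB8, DND41 at 10.1 and 10.13 and HPB-ALL at 10.07 and 10.07 were not separated by the test (0.04, adjusted p = 0.693), and CEM was above DND41 by 0.51 and above HPB-ALL by 0.55. PSMB10 went the other way against DND41, with CEM minus DND41 at -0.36 ± 0.09 (SE, adjusted p = 0.00426 by limma). CEM minus HPB-ALL was 0.14 for PSMB10 (adjusted p = 0.21), not past the threshold. The difference of DND41 from HPB-ALL in PSMB9 was -0.22 (adjusted p = 0.0582), short of the threshold.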

How the data were processed

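Gene expression was measured on 20 Affymetrix U133 Plus 2.0 arrays. Values in the deposited file are linear intensities, 1 for each probe set and array, made with RMA per the submitters' processing notes, whose version is not given in the sources used here. Probe sets were named through the platform table, 41097 of 54675 with 1 gene. A gene was represented by its probe set of highest mean, with log2 taken and no pseudocount. Genes reaching the median of all values, an intensity of 31.96, on at least 2 arrays were kept (13787). limma 3.58.1 in R 4.3.3 was fitted to 10 group means, with 10 residual and 3.42 prior degrees of freedom and Benjamini-Hochberg adjustment over all genes at 0.05. Promoter windows came from RefSeq on GRCh38.p14. The fits were tested on simulated data. Arrays have no read depth, so their number limits the precision.

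The genes and lists were chosen with earlier results of these data known. The rule for names always gives PSMB5 to PSMB10 and PSMA8. It then takes up to 12 genes past the threshold on average, the 2 largest in each direction in a line, up to 5 by difference between lines, the 4 largest in each direction for levels, and up to 4 per list. The DND41 genes beyond these were named after their values were seen. Alternatives are in the closing part: normalization, filter, probe sets, prior, replicate block, covariate, lines and arrays left out.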

Additional observations from a re-analysis of the deposited data

Results flagged for a closer look

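The effect of NBD differed between the lines for 4 proteasome genes in limma's moderated F-test. The adjusted p was 0.015 for PSMB2, 0.02 for PSMA3, 0.0275 for PSMD12 and 0.0322 for PSMD14. For each gene DND41 was below 0 and CEM above 0.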

How the results depend on the processing

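The immunoproteasome call on the average rests on pooled arrays: with lines as replicates 0 genes passed, and with only T-ALL1 and KOPT-K 0 passed, where PSMB6 and PSMB7 were at 0.01 and 0.03. The average count lower was 3 with the actin covariate (PSMB8, PSMD8 and PSMC3) and 3 without the DND41 line (PSMB8, PSMB9 and PSMB10), an alternative added after the data were seen, where PSMB7 was at 0.02. The share of all genes called in these fits was not counted. Leaving out 1 array at a time gave 4 to 8 lower and 0 to 1 higher. PSMB8, PSMB9, PSMB10 and PSMB2 held in all 20 such fits, while PSME1 lost its call in 9 and PSMD8 in 11.

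In DND41 the count lower was 4 with no filter, 6 with the mean of all probe sets, 17 with a trended robust prior, and 1 to 16 with 1 array left out. The count that differed between lines was 2, 1 and 10 under the first 3 of these settings, and 0 to 15 with 1 array left out. CEM had 3 higher and 1 lower with the trended prior, 1 lower with the covariate, and 0 to 2 higher with 1 array left out. HPB-ALL had 1 lower with the covariate. T-ALL1 had 2 higher with the trended prior and 1 lower with the mean of probe sets. Its counts also changed when its second control array was left out, which leaves 1 array in that group. For levels, CEM minus DND41 gave 11 to 21 lower and DND41 minus HPB-ALL 5 to 11 lower with 1 array left out. On NBD arrays these were 14 higher and 3 lower, with PSMB2 at 0.2 and PSMD3 at 0.11, and 17 lower. The share of all genes called was not counted on those arrays or in the other fits of this paragraph.

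Whether the replicate numbers pair the samples is not known. Deviations of same-numbered arrays correlated at -0.281 to 0.143, which rests on 2 arrays a group and cannot settle it. With the replicate block, 1 gene was lower on average, 1 in DND41, and 0 differed between lines. The share of all genes called in that fit was not counted, and the cause of these changes was not tested. Arrays left out aside, 150 counts stayed within 1.5 times the main count, or at 0 where that was 0, and 22 counts moved by more. Of the values of single genes, 368 kept their direction and side of the threshold and 5 changed sign, as given above. Another 42 kept their direction but not their call, and 1 gained a call, PSMB5 on average with the trended prior (adjusted p = 0.0227). Signal over background limits PSMA8, which was below the filter value in 3 lines.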
